A study of Mus musculus with 3 samples.

Results

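The genes described here are the nuclear-encoded genes of oxidative phosphorylation in L929 cells, a mouse fibroblast line. Members were taken by symbol (names that begin with Nduf, Uqcr, Cox4 to Cox8 or Atp5, and the genes Sdha, Sdhb, Sdhc and Sdhd, without names that end in -ps). The rule gave 98 genes of the 55682 symbols in all tables, and it used no measured value. By name, 49 belong to complex I, 4 to complex II, 8 to complex III, 19 to complex IV and 18 to complex V. They comprise 7 core and 31 accessory subunits of complex I, 47 subunits of the other complexes, 9 assembly factors and 4 annotated processed pseudogenes (Cox6c2, Ndufs6b, Ndufa11b and Ndufb4c). The CBTi-seq table listed 95 members and the 3' tables listed all 98. Cox6b2, Cox8b and Cox8c were not listed by CBTi-seq and had no count in the 3' tables.

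Oxidative phosphorylation takes place in the inner mitochondrial membrane. Complex I (NADH dehydrogenase) and complex II (succinate dehydrogenase) pass electrons to coenzyme Q, complex III passes them on to cytochrome c, and complex IV (cytochrome c oxidase) passes them to oxygen. Complexes I, III and IV pump protons, and complex V (ATP synthase) makes ATP from the proton gradient. All complexes but complex II combine subunits made from nuclear genes with subunits encoded in mitochondrial DNA.

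The series compared control cells with cells in which Rrm2, a subunit of ribonucleotide reductase, was knocked down, in 3 samples. By CBTi-seq, 1 sample gave 10 columns under the name control and 10 under knock, and the other 2 samples were a 3' library labelled control and a 3' library labelled knock, with 8 columns each. The sources used here give neither the means of the knockdown nor the nature of the control, and no age, time or further treatment is labelled. Since each 3' library is 1 sample, and both CBTi-seq groups come from 1 sample, no difference was tested against replicates, and columns of a sample are described as columns only.

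Rrm2 stood at 481 CPM (counts per 1000000 gene counts) in the CBTi-seq control columns and at 350 CPM in the knock columns, with overlapping columns (356 to 652 and 283 to 489 CPM). In the 3' libraries it went against the labels, at 39.1 CPM under the label control and 148 CPM under the label knock, so every 3' direction below follows labels that this gene does not bear out. Columns held 41570 to 846819 counts by CBTi-seq and 399393 to 2496457 in the 3' tables. The shallowest was CBTi-seq control column 1, where 1 count equals 24.1 CPM. Of 10 fibroblast markers, 9 were counted in both CBTi-seq groups, with summed levels of 1973 to 3360 CPM per control column and 1843 to 3195 CPM per knock column. Of the 7 that averaged at least 20 CPM there, 2 were higher and 5 lower in knock columns. Among these, 3 were lower by 1.5-fold or more, beside 10.2% of all genes at that level. They were Col1a2, Pdgfrb and Fn1 (log2 ratios of knock to control -1.26, -0.83 and -0.62). In the 3' libraries the 10 fibroblast markers summed to 1680 to 1946 CPM in columns labelled control and 3042 to 3272 CPM in columns labelled knock. Of 6 epithelial markers, Cdh1 stood at 188 and 110 CPM under the 3' labels control and knock and was not listed by CBTi-seq, while Krt18, Krt5 and Krt14 had no 3' count. Krt8 of that list had no 3' count under the label control and 56 counts (6.11 CPM) under the label knock. The 8 macrophage and blood markers summed to 65.5 to 120 CPM in 3' columns labelled control and 136 to 190 CPM in those labelled knock. Among them Cd68 was at 77.8 and 150 CPM by 3' counts, and at 43.5 and 20.0 CPM in CBTi-seq control and knock columns. Ribosomal protein genes took 23.5% to 24.6% of the counts in 3' columns labelled control and 15.6% to 16.3% in those labelled knock. The part of these differences in the 3' results was not tested.

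CBTi-seq control and knock columns held similar amounts of oxidative phosphorylation RNA. The members' summed share of all gene counts ran from 2.11% to 3.29% over the 10 control columns (median 2.61%) and from 2.13% to 2.99% over the 10 knock columns (median 2.53%). Of the 95 listed members, 88 averaged at least 20 CPM over both groups, the level limit used for all counts of genes here. Their median log2 ratio of knock to control was 0.02, against -0.05 over all 8391 genes at that limit. Among the 88 members, 46 (52.3%) were higher and 42 lower in knock columns, where 44.7% of all genes were higher. No member was higher by 1.5-fold or more (3.54% of all genes were), and 3 members were lower by that much (10.2% of all genes were). They were Ndufa4l2, Ndufaf5 and Sdhc.

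By complex, the CBTi-seq median log2 ratio was -0.0044 for 46 members of complex I, -0.13 for 4 of complex II, 0.09 for 8 of complex III, -0.07 for 13 of complex IV and 0.05 for 17 of complex V. These medians lay closer to 0 than the ratios of many single members, as the plot of ratios by complex shows. The medians of all members and of complexes I, IV and V changed sign when some columns were left out in turn, and that of complex II became 0.01 after columns were thinned to the same depth.

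**Figure D1:**
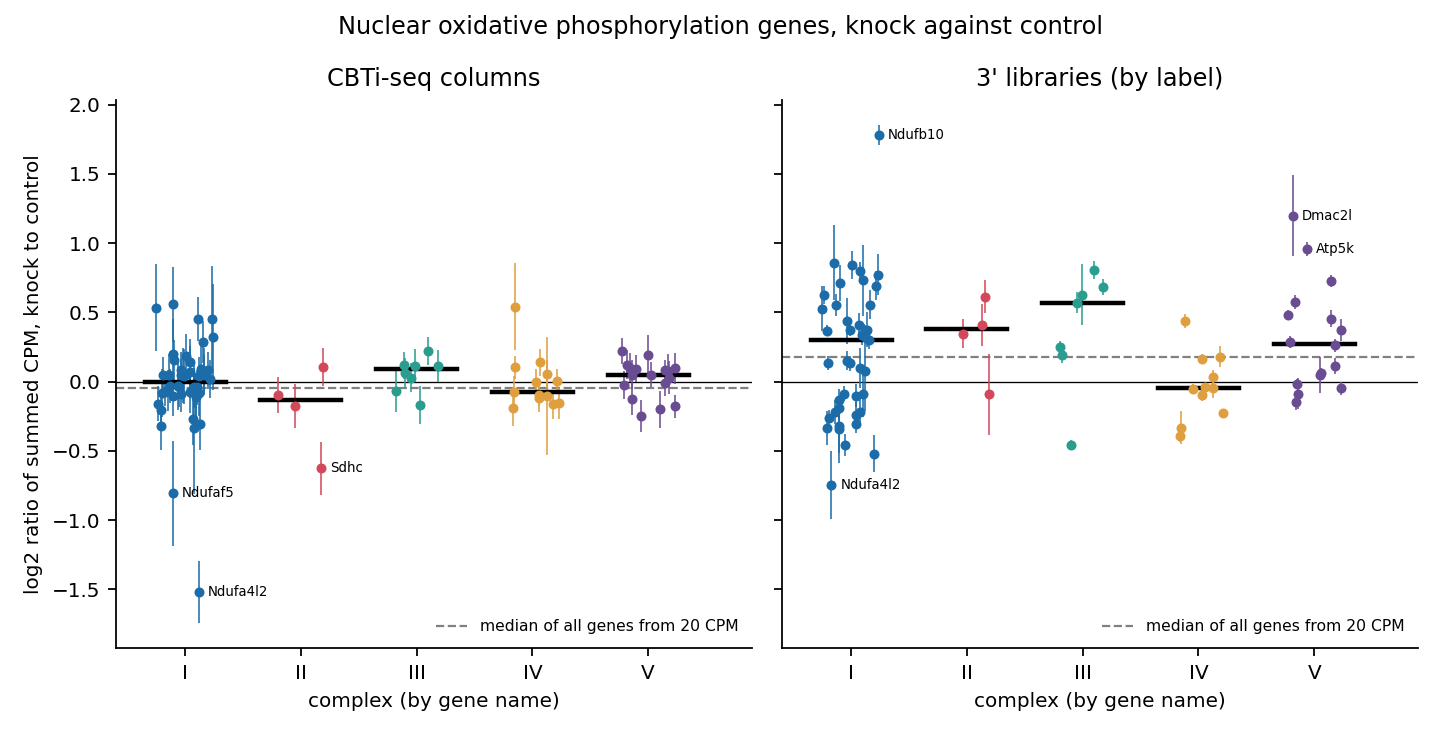
Each point is 1 member at 20 CPM or more, with the log2 ratio of its summed CPM (knock to control) on the vertical axis, its 95% counting interval as a bar and complexes I to V on the horizontal axis. Black lines are medians by complex and the dashed line is the median of all genes at that limit. The CBTi-seq medians lie between -0.13 and 0.09, and the 3' medians between -0.05 and 0.57, with Ndufb10 at 1.78.

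Of the members at the level limit, Ndufa4l2 had the lowest knock level relative to control in both methods, with the 3' labels taken as given. It encodes a paralogue of Ndufa4 that is known to be induced under low oxygen, and it lies at chr10:127514967-127517154 on the plus strand of GRCm38, where its exons overlap those of Shmt2 on the other strand. CBTi-seq control columns ran from 18.2 to 427 CPM (median 111) and knock columns from 12.9 to 283 CPM (median 40.3). The groups overlapped widely, and knock column 1 alone was at 283 CPM while the other 9 knock columns were at 79.1 CPM or less. The summed level was 174 CPM in control and 60.7 CPM in knock columns, a log2 ratio of -1.52 (95% interval -1.75 to -1.29, which like every interval below covers counting error only). The ratio was -1.87 without knock column 1 and -2.13 after thinning. In the 3' libraries it was 30.6 to 60.8 CPM in columns labelled control (median 50.2) and 16.8 to 37.0 CPM in those labelled knock (median 26.7), a log2 ratio of -0.75 (-0.99 to -0.50). With the 3' labels exchanged it would be the member furthest above 0 by 3' counts. Its partner Ndufa4, named for complex I and later placed in complex IV, showed no such difference by CBTi-seq (404 and 384 CPM, log2 ratio -0.07, interval -0.18 to 0.03). Per kilobase of longest transcript, Ndufa4l2 was at 186 and Ndufa4 at 662 CPM in CBTi-seq control columns, and at 65.0 and 629 CPM in knock columns.

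Sdhc was the only member at the level limit whose CBTi-seq columns did not overlap between the groups. It encodes a membrane anchor of succinate dehydrogenase that holds its haem and quinone site (chr1:171127165-171150603, minus strand, GRCm38). Control columns ran from 135 to 195 CPM (median 153) and knock columns from 77.2 to 126 CPM (median 100.0). Every control column was above every knock column. Of all genes at the level limit, 0.0715% had all knock columns lower and 0.0596% had all knock columns higher. The summed level was 159 CPM in control and 103 CPM in knock columns, a log2 ratio of -0.63 (-0.82 to -0.44), and the ratio stayed between -0.68 and -0.58 when each column was left out in turn. The 3' libraries gave the other direction, with 45.1 to 93.8 CPM in columns labelled control and 87.7 to 123 CPM in those labelled knock (log2 ratio 0.41, 0.26 to 0.56). Those columns overlapped, in that 3 columns labelled control lay above the lowest column labelled knock.

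The other 3 genes of complex II did not share this difference by CBTi-seq. Sdha, the flavoprotein that oxidises succinate, was at 226 and 243 CPM (log2 ratio 0.10, -0.03 to 0.24). Sdhb, its iron-sulphur partner, was at 266 and 249 CPM (-0.10, -0.23 to 0.04). Sdhd, the other membrane anchor, was at 191 and 169 CPM (-0.17, -0.33 to -0.02). In the 3' libraries Sdha and Sdhb were higher in the library labelled knock (log2 ratios 0.61 and 0.35), and Sdhd was close to level (-0.09, -0.38 to 0.20).

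Among complex I genes, the largest CBTi-seq ratios above 0 belonged to assembly factors and to Ndufs4. Ndufs4 is an accessory subunit of the NADH-oxidising arm whose loss is a mouse model of Leigh syndrome. Its control columns ran from 48.1 to 177 CPM (median 156), the lowest being control column 1, and its knock columns from 161 to 252 CPM (median 230). In 8 of 10 knock columns it was above every control column. The summed level was 157 CPM in control and 215 CPM in knock columns, a log2 ratio of 0.45 (0.30 to 0.61), under the 1.5-fold limit. The 3' libraries gave 193 to 255 CPM in columns labelled control and 213 to 345 CPM in those labelled knock (log2 ratio 0.41, 0.32 to 0.49). The plot of 4 members by column shows Ndufs4 beside Ndufa4l2, Sdhc and Ndufb10.

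**Figure D2:**
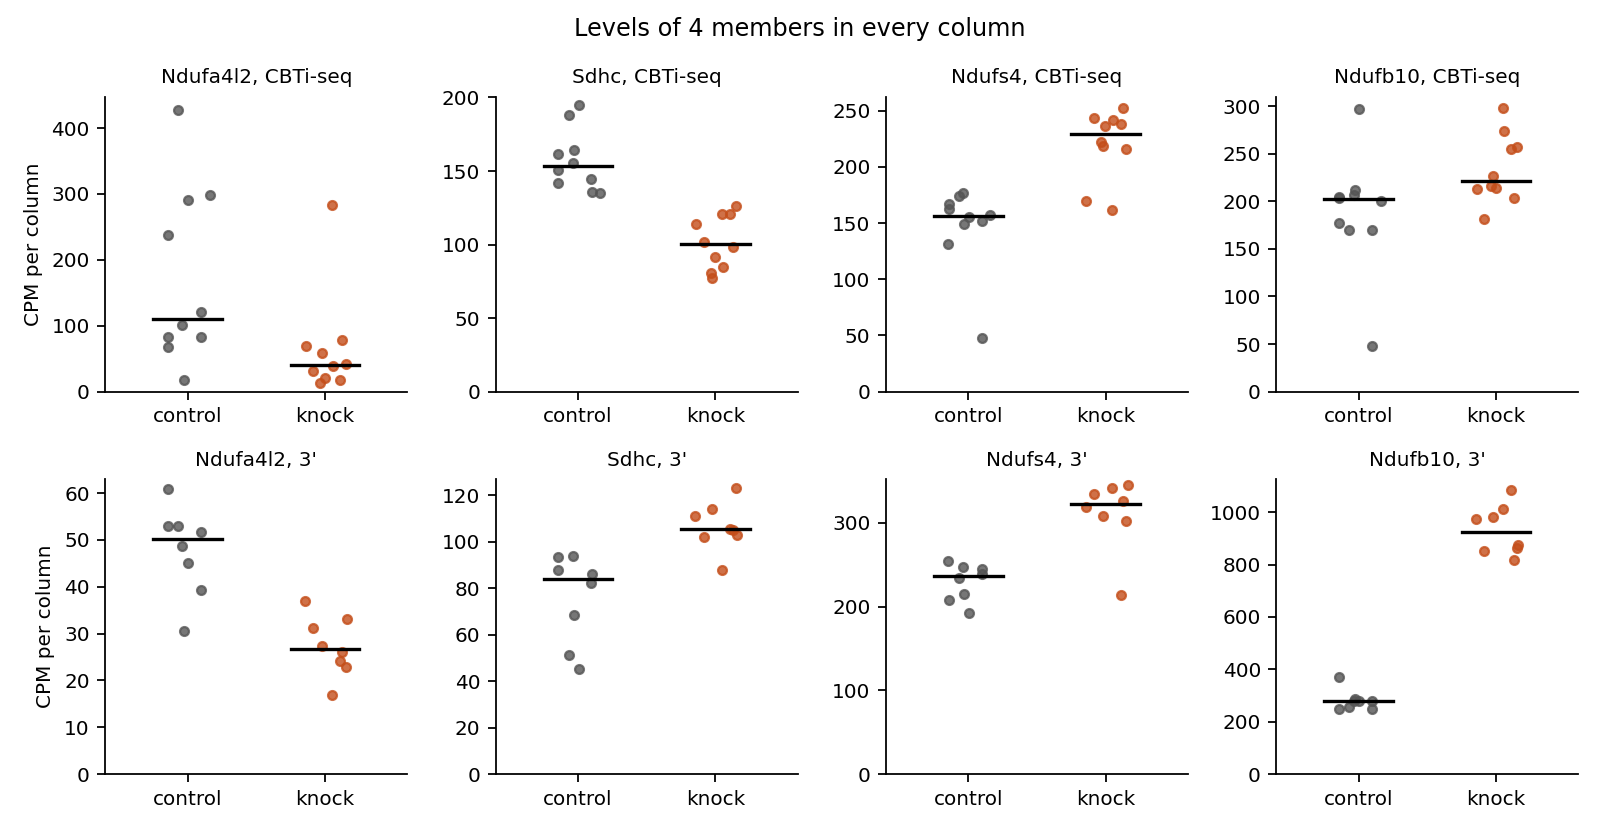
Each point is 1 column, with the level in CPM on the vertical axis and the column's label on the horizontal axis, for 4 members in CBTi-seq (upper row) and the 3' tables (lower row). Black lines are medians over columns. Sdhc columns do not overlap by CBTi-seq, and Ndufb10 columns lie at 247 to 370 CPM against 820 to 1085 CPM in the 3' tables.

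Assembly factors, which help to build complex I and then leave it, were mostly low and uneven by CBTi-seq. Ndufaf4 was higher than the others, at 176 CPM in control and 164 CPM in knock columns. Ndufaf2, a late-acting factor related to Ndufa12, was at 51.5 CPM in control and 75.8 CPM in knock columns (log2 ratio 0.56, 0.29 to 0.83). Ndufaf6, which acts early, was at 39.4 and 57.0 CPM (0.53, 0.22 to 0.85). Ndufaf5, which modifies the core subunit Ndufs7, was at 45.3 and 25.9 CPM (-0.80, -1.19 to -0.43). All of them had overlapping columns. The ratio of Ndufaf5 rested on control column 9, at 95.7 CPM the highest, and was -0.26 without it. After thinning, the ratios of Ndufaf2 and Ndufaf5 were -0.17 and -0.11, at a depth where 1 count equals 24.1 CPM. Ndufaf3 was at 24.1 and 19.1 CPM (-0.33, -0.81 to 0.13). Over all 8 assembly factors at the limit the median was 0.26, with 5 higher and 3 lower.

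The 7 core subunits of complex I, which carry the flavin and iron-sulphur clusters, differed little by CBTi-seq. Their log2 ratios ran from -0.27 to 0.05, with 5 lower and 2 higher (Ndufv1 and Ndufv2, both 0.05). Ndufs1, which carries clusters of the NADH-oxidising arm, was the lowest at 145 and 120 CPM (-0.27, -0.45 to -0.08). Ndufs3, Ndufs7 and Ndufs8 lay between -0.09 and -0.04, each with an interval that held 0. The 31 accessory subunits had a median of 0.02.

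Isoforms of complex IV that are restricted to some tissues were far below their common counterparts by CBTi-seq. Cox4i1 was at 455 and 419 CPM by CBTi-seq, while its lung and hypoxia isoform Cox4i2 had 1 and 2 counts in all control and all knock columns. Cox7a2 was at 446 and 399 CPM, and Cox7a1, the heart and muscle isoform, had 32 counts in control and 5 in knock columns (8.29 and 1.43 CPM, under the level limit). The 3' libraries gave the other direction for Cox7a1, with 93 counts under the label control and 205 under the label knock (13.2 and 22.4 CPM). Cox6a1 was at 417 and 433 CPM per group. Its heart and muscle isoform Cox6a2 was the one of these 3 at the level limit, with 104 and 88 counts (26.9 and 25.1 CPM). Cox6a2 columns ran from 0 to 59.6 CPM in control and from 4.36 to 35.4 CPM in knock columns, and they overlapped throughout. Of the 5 muscle markers, 1 was listed by CBTi-seq, at 0.777 CPM in control columns and with no count in knock columns. The exons of Cox6a2 overlap Itgad on the other strand, and the sources used here do not say whether counting used strand, so reads of the 2 genes cannot be told apart.

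The genes Atp5g1, Atp5g2 and Atp5g3 encode the same mature c subunit of the ATP synthase rotor from different precursors. By CBTi-seq they were at 455 and 448 CPM, 382 and 410 CPM, and 354 and 325 CPM in control and knock columns. Their log2 ratios of -0.02, 0.10 and -0.13 lay within the range of the other subunits of complex V (-0.25 for Atp5e to 0.22 for Atp5d). In the 3' libraries Atp5g3 was higher in the library labelled knock (290 and 375 CPM, log2 ratio 0.37, 0.29 to 0.45), whereas Atp5g1 and Atp5g2 were at 0.06 and 0.05.

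Cox6c2, annotated as a processed pseudogene of Cox6c, was among the largest CBTi-seq ratios above 0 (39.4 and 57.3 CPM, log2 ratio 0.54, 0.23 to 0.86). Its sequence matches 2 other transcripts at 90% identity or more over at least 50% of its length, so its counts may be shared with them. Cox6c itself was at 658 and 662 CPM, and in the 3' libraries Cox6c2 lay the other way (157 and 125 CPM, -0.33). In all, 15 members had such a copy, and 33 had exons that overlap another gene.

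The 3' libraries showed larger differences, and most complexes stood higher in the library labelled knock. The members' summed share was 4.23% to 4.44% in columns labelled control (median 4.30%) and 4.72% to 4.99% in those labelled knock (median 4.82%), with no overlap. Of 81 members at the level limit, 52 (64.2%) were higher in the library labelled knock, beside 58.8% of all 5701 genes. The median log2 ratio of members was 0.19, and that of all genes was 0.18. By 1.5-fold or more, 16 members were higher (19.8% of members and 30.5% of all genes) and 1 was lower (Ndufa4l2), beside 15.0% of all genes. With TMM scaling the median of all genes became 0.03 and that of members 0.06.

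Complexes differed in the 3' tables. The median log2 ratio was 0.30 for 43 members of complex I, 0.38 for 4 of complex II, 0.57 for 7 of complex III and 0.27 for 16 of complex V, but -0.05 for 11 of complex IV, and each kept its sign under every scaling tried. Complex I took 1.35% to 1.43% of the counts in columns labelled control and 1.59% to 1.71% in those labelled knock. Complex V took 1.11% to 1.21% and 1.35% to 1.49%. For both, every column labelled knock was above every column labelled control. Complex IV took 1.17% to 1.24% and 1.13% to 1.19%, with overlap.

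**Figure D3:**
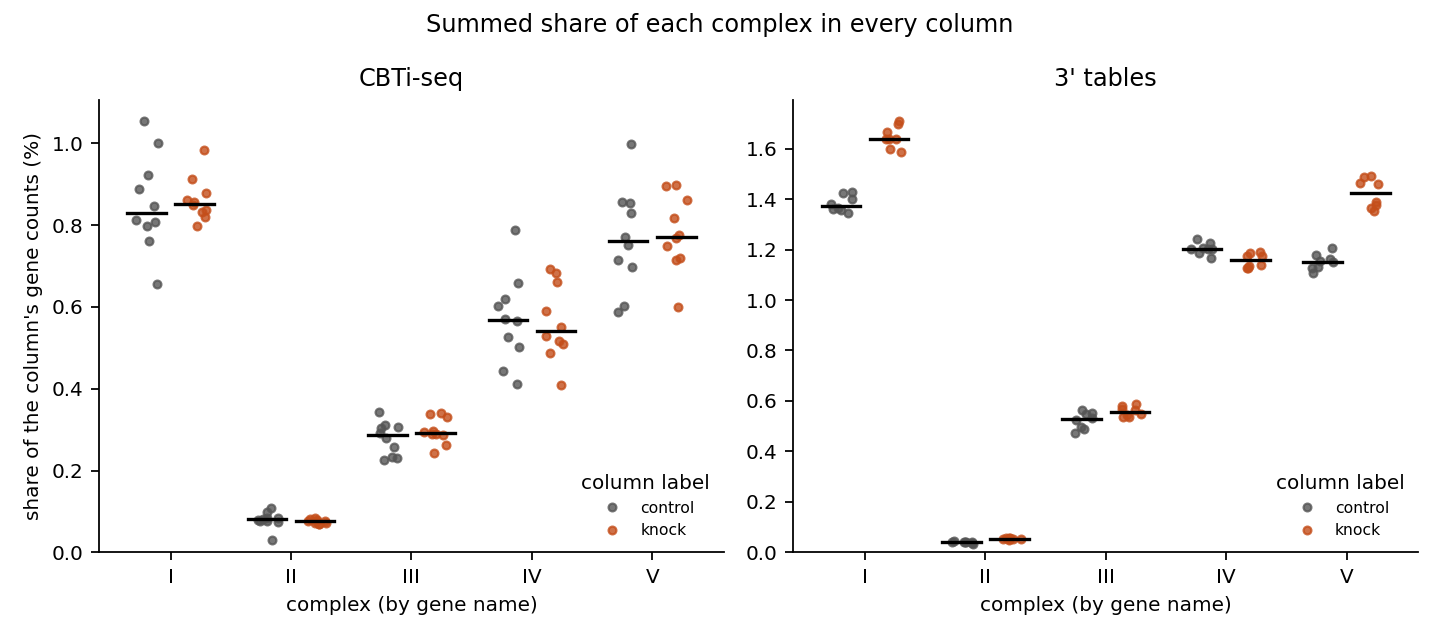
Each point is 1 column, with the summed share of a complex in percent of the column's gene counts on the vertical axis and complexes I to V on the horizontal axis. Black lines are medians over columns. Shares of the groups overlap for every complex by CBTi-seq, and they are separate for complexes I, II and V in the 3' tables.

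Columns of 23 members were all higher in the library labelled knock (28.4% of members and 21.2% of all genes), and those of 3 members were all lower (3.70% of members and 8.02% of all genes). Of the 23, 12 belong to complex I, 1 to complex II, 3 to complex III, 1 to complex IV and 6 to complex V. The 3 lower members were Cox7a2, Cox8a and Ndufa6. No member had separate columns in both methods.

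Ndufb10 had the largest 3' ratio. It encodes an accessory subunit of the membrane arm of complex I (chr17:24722060-24724478, minus strand, GRCm38). Columns labelled control ran from 247 to 370 CPM (median 280) and columns labelled knock from 820 to 1085 CPM (median 925). The groups lay far apart, and the log2 ratio of the sums (273 and 939 CPM) was 1.78 (1.71 to 1.86). By CBTi-seq the same gene was at 204 and 228 CPM with overlapping columns (0.16, 0.02 to 0.30).

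Atp5k, the subunit e that joins ATP synthase dimers, followed a similar pattern. Its 3' columns ran from 539 to 611 CPM under the label control (median 574) and from 999 to 1216 CPM under the label knock (median 1098). The groups did not overlap, and the log2 ratio was 0.96 (0.90 to 1.01). CBTi-seq gave 198 and 227 CPM, with columns of 144 to 303 and 184 to 307 CPM (0.19, 0.05 to 0.34). Atp5k has 1 annotated near copy, so its counts may be shared.

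Of the core subunits of complex I, 6 reached the limit in the 3' tables, and 5 were higher in the library labelled knock. Ndufs3, a core subunit near the coenzyme Q site, was at 22.8 and 41.3 CPM (log2 ratio 0.86, 0.59 to 1.13), and 0.57 without knock column 3. Ndufv2 was at 352 and 611 CPM (0.80), Ndufv1 at 160 and 235 CPM (0.56) and Ndufs7 at 468 and 598 CPM (0.35). Ndufs8 lay the other way, at 274 and 235 CPM (-0.22, -0.31 to -0.13).

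The 3' ratios furthest below 0 after Ndufa4l2 belonged to Ndufb3, Ndufa7 and Uqcrq. Ndufb3, a membrane-arm subunit, was at 132 and 91.9 CPM (-0.52, -0.66 to -0.38), and -0.36 without control column 2. Ndufa7 was at 357 and 260 CPM (-0.46, -0.54 to -0.38). Uqcrq, a small subunit of complex III bound near its quinone site, ran from 1956 to 2549 CPM in columns labelled control and from 1459 to 1983 CPM in those labelled knock, and only the extreme columns overlapped (-0.46, -0.49 to -0.42). The other 6 members of complex III at the limit were all higher in the library labelled knock, up to Uqcrh, the hinge protein, at 389 and 681 CPM (0.81, 0.74 to 0.87).

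In complex IV, Cox7a2 and Cox8a stood lower in every column labelled knock. Cox7a2 ran from 1115 to 1301 CPM and from 863 to 967 CPM in columns labelled control and knock (-0.39, -0.43 to -0.35). Cox8a ran from 2431 to 2755 CPM and from 2014 to 2278 CPM (-0.22, -0.25 to -0.20). Of the 11 members of complex IV at the limit, 4 were higher in the library labelled knock, among them Cox5a (346 and 392 CPM) and Cox7c (1299 and 1454 CPM). Cox5b, a zinc-binding subunit, had the largest of these ratios, at 703 and 953 CPM (0.44, 0.39 to 0.49), with every column labelled knock higher.

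Both methods could be read for 80 members at the limit in each. Of these, 30 were higher and 15 lower in knock columns by both, 14 were higher by CBTi-seq alone and 21 were higher by 3' counts alone. These counts take the 3' labels as given, and with those labels exchanged 14 would be higher and 21 lower by both. In complex V, 8 of 15 were higher and 2 lower by both. These tallies were not made over all genes, so they do not show agreement beyond that of other genes. Each under the limit in 1 method, Dmac2l, a factor related to ATP synthase (log2 ratios -1.28 by CBTi-seq and 1.20 by 3' counts), and Ndufaf5 (-0.80 and 1.43) had ratios of opposite sign.

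The subunits encoded in mitochondrial DNA, which assemble with the members, were higher in the 3' library labelled knock. All 7 at the limit were higher there, with a median log2 ratio of 1.09. mt-Co1, the catalytic subunit of complex IV, was at 152 and 565 CPM (1.89, 1.80 to 1.99), and mt-Nd1 of complex I was at 1752 and 4286 CPM (1.29, 1.26 to 1.32). By CBTi-seq 10 of 12 were higher in knock columns, with a median of 0.17. Mitochondrial genes as a whole took 0.946% to 0.994% of the 3' counts under the label control and 1.67% to 1.74% under the label knock.

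Assembly factors outside the naming rule were spread from -1.94 to 1.07 in log2 ratio by CBTi-seq and from -0.53 to 1.42 by 3' counts. By CBTi-seq, 36 of 41 were at the limit, with a median log2 ratio of 0.13. Of the 36, 5 were higher by 1.5-fold or more and 2 lower, beside 3.54% and 10.2% of all genes. Cox20, a chaperone for the mitochondrially encoded Cox2 protein, was at 55.7 CPM in control and 14.5 CPM in knock columns (-1.94, -2.41 to -1.49). Cox19, a copper-related factor for complex IV, was at 38.3 and 80.4 CPM (1.07, 0.78 to 1.37). By 3' counts, 22 were at the limit, of which 9 were higher by 1.5-fold or more and none lower, beside 30.5% and 15.0% of all genes. Those higher included Coa7 (16.7 and 44.7 CPM, 1.42) and Coa3 (116 and 257 CPM, 1.15), which both serve complex IV, whose subunits had a median of -0.05.

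Other parts of the pathway stayed near 0 by CBTi-seq. Of 16 citric acid cycle genes, 7 were higher and 9 lower (median -0.04), and none passed 1.5-fold. Of 9 coenzyme Q synthesis genes, 4 were higher and 5 lower (median -0.02). Of 9 regulators of mitochondrial gene expression, 5 were higher and 4 lower (median 0.07), and Ppargc1b, a coactivator of mitochondrial genes, was at 42.7 and 27.9 CPM (-0.61, -0.99 to -0.24). In the 3' tables the medians of these lists were 0.33 for 14 genes, 0.47 for 10 genes and -0.18 for 4 genes.

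Per kilobase of longest transcript, levels of members at the limit ranged widely within complexes. The highest stood above the lowest by 62.3-fold in complex I, 32.3-fold in IV and 8.68-fold in V in CBTi-seq control columns. The lowest there were, in that order, the assembly factor Ndufaf7, the isoform Cox6a2 and Atp5g1. In the 3' library labelled control the range ran from 7.20-fold in complex II to 190-fold in complex V. In CBTi-seq control columns Cox8a was at 1277 CPM per kilobase, followed by Cox5a at 921 and Cox6c at 892. Within complex III, levels ran from 162 for Uqcrc2 to 741 for Uqcrb, a range of 4.56-fold, and within complex II from 50.2 for Sdhc to 233 for Sdhb, a range of 4.64-fold. Ndufa4 led complex I at 662 and Atp5e led complex V at 838. The 3' library labelled control placed Cox8a at 4604 CPM per kilobase, Ndufa4 at 1739, Sdhb at 148, Uqcr10 at 2412 and Atp5e at 2215, so the same gene led in 4 of 5 complexes. Counts need not grow with transcript length in either method, which limits all values per kilobase. They also depend on the longest annotated transcript, which for Sdhc has 3171 bases.

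Levels of the members in the control columns of both methods were related over all members together, but not within every complex, with a few wide gaps. Of 88 members at 20 CPM or more by CBTi-seq, the median log2 ratio of 3' to CBTi-seq level was 0.62, against -1.77 over all 8476 genes at that limit. Across those of the 88 genes that had a 3' count, which are not independent replicates, Spearman's rho of the levels was 0.58. It leaves out the 3 members with no 3' count. By complex, rho was 0.53 in complex I, 0.75 in complex IV, 0.25 over 17 members of complex V and 0 over 8 of complex III. In 8 members the 3' level was more than 10-fold below the CBTi-seq level (9.09% of members and 22.7% of all genes), and 3 of them had no 3' count (3.41% of members and 8.29% of all genes). The limit here was set on the CBTi-seq level alone, and members were not matched to all genes by level. The part of that choice in the differences from all genes was not tested.

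**Figure D4:**
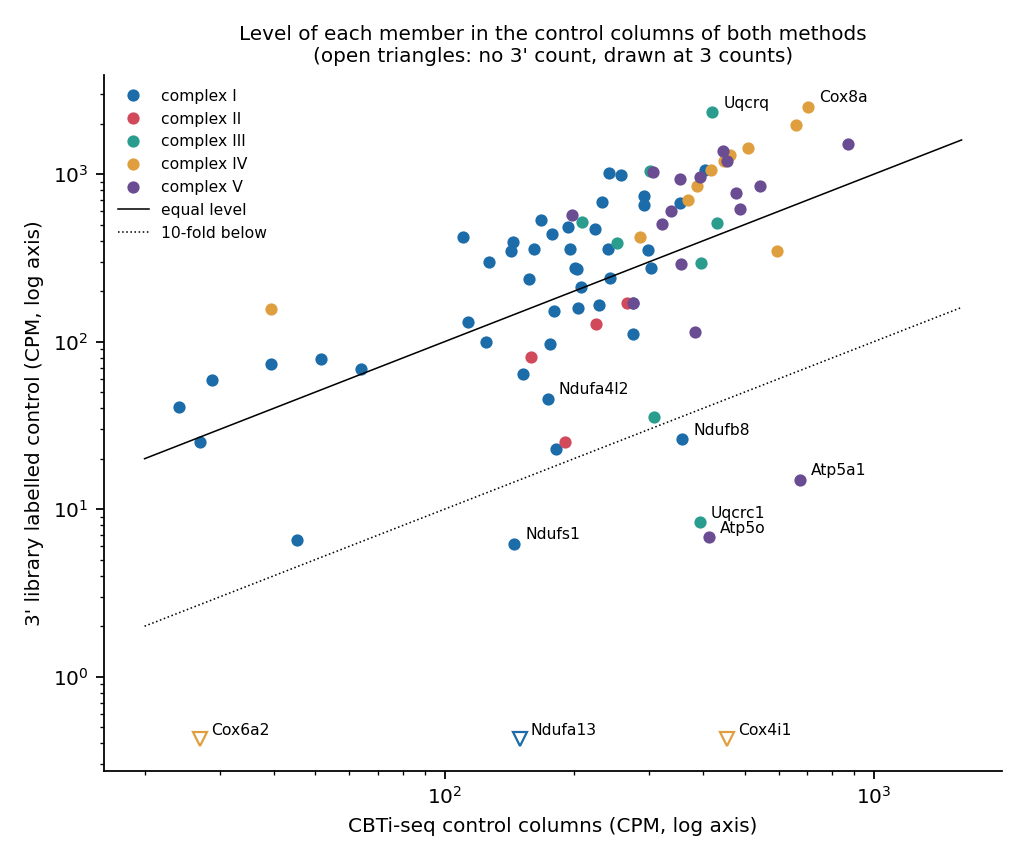
Each point is 1 member, with its level in the CBTi-seq control columns on the horizontal axis and in the 3' library labelled control on the vertical axis (CPM, log axes), coloured by complex. Lines mark equal levels and a 10-fold lower 3' level, and open triangles are members with no 3' count, drawn at the 0.424 CPM that 3 counts equal. Cox4i1 lies at 455 CPM by CBTi-seq with no 3' count, and Uqcrq and Cox8a are highest in the 3' library.

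Cox4i1, the regulatory subunit IV that most cells express, was the clearest gap. CBTi-seq control columns ran from 355 to 601 CPM (median 483), and the 3' libraries held no count in any of their 16 columns. There 3 counts equal 0.424 CPM under the label control and 0.327 CPM under the label knock. These values bound the level only if reads of the gene could be counted, which is not known. Ndufa13 (150 CPM by CBTi-seq) and Cox6a2 (26.9 CPM) also had no 3' count. Atp5o was at 413 and 6.79 CPM by CBTi-seq and 3' counts, Uqcrc1 at 393 and 8.35 CPM, Atp5a1 at 672 and 15.0 CPM, Ndufs1 at 145 and 6.23 CPM, and Ndufb8 at 358 and 26.2 CPM. The 8 genes belong to complexes I, III, IV and V. In 7 of the 8, exons overlap another annotated gene (all but Uqcrc1), for example Emc8 on the other strand at Cox4i1 and Haus1 at Atp5a1. Of the other 80 members, 26 had such an overlap, with a median log2 ratio of 0.64. Over members whose exons overlap no other gene, rho was 0.75. The sources used here do not say how overlapping reads were counted, and its part in these gaps was not tested.

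In CBTi-seq knock columns the members' share moved with the depth of the column, and in control columns it did so only weakly. Over the 10 knock columns Pearson's r between the share and the column's total count was -0.89 (rho -0.90), and over the 10 control columns r was -0.34 (rho -0.36). The members' share also followed that of ribosomal protein genes in knock columns (r 0.88, rho 0.85), less so in control columns (r 0.16, rho 0.38). Complex IV and complex V shares moved together in both groups (r 0.95 in control and 0.98 in knock columns). Columns share their library and each share is a part of the same total, so these values describe the columns only. No CBTi-seq gene exceeded 638 counts in any column, and no member exceeded 500. After a correction for repeated tags in an assumed pool of 1024 UMIs, r between share and depth was -0.86 in knock columns (rho -0.90). In control columns it was -0.26 (rho -0.10).

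Promoters of the members were read for letters known from nuclear genes of mitochondrial proteins. RefSeq promoters (GRCm38.p6, 250 bases before to 50 bases after each start) were matched for 77 members. Ndufa4l2, Sdhc and Cox4i1 were not among them, so no core was read for these genes. The NRF1 core GCGCATGC, on either strand, was present in 12 of 77 (15.6%), beside 3.05% of promoters of all genes and 3.94% of those of protein-coding genes. The ETS core CCGGAAG, which the factor GABP binds, was present in 19 (24.7%), beside 9.93% and 12.9%. The YY1 core AAGATGGC was present in 11 (14.3%), beside 3.19% and 3.57%. The hypoxia core ACGTG, added after the data were seen, was present in 19 (24.7%), beside 21.8% and 23.2%. The NRF1 core overlaps its own reverse complement where both are present. The 5 sequences below show, for 1 member of each complex, 170 bases that end just before the start, 5′ to 3′ on the gene's strand, with the NRF1 or ETS cores in capitals on either strand. They lie on GRCm38.p6, Ndufa11 at chr17:56717592-56717761 (plus strand), Sdhd at chr9:50603850-50604019 (minus strand), Uqcrh at chr4:116075071-116075240 (minus strand), Cox6a1 at chr5:115348959-115349128 (minus strand) and Atp5e at chr2:174464102-174464271 (minus strand).
Ndufa11: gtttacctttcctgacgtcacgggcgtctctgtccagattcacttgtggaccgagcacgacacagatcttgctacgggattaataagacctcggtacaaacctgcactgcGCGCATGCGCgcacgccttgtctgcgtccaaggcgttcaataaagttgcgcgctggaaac
Sdhd: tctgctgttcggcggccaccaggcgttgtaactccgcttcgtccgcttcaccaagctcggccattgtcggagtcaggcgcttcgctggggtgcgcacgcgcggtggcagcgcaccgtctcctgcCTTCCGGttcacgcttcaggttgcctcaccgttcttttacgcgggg
Uqcrh: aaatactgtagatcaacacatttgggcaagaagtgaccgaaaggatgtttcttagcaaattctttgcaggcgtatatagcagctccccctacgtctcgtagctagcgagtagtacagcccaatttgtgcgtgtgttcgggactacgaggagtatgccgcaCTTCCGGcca
Cox6a1: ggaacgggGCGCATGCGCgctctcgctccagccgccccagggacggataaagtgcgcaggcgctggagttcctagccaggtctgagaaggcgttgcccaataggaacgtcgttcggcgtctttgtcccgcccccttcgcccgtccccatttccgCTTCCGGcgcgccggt
Atp5e: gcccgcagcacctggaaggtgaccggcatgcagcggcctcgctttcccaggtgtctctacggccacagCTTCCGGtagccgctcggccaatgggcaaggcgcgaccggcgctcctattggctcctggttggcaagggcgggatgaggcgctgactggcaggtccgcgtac

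The distance of the cores from the start differed among these 5. Counted from the start, the NRF1 core of Ndufa11 begins 60 bases upstream and that of Cox6a1 162 bases upstream. The ETS core begins 102 bases upstream in Atp5e, 46 bases upstream in Sdhd, 16 bases upstream in Cox6a1 and 10 bases upstream in Uqcrh. A match describes letters and is not a measured binding site. Among members at the level limit by CBTi-seq, the median log2 ratio was 0.06 for 12 with the NRF1 core and 0.04 for 60 without it, -0.03 for 19 with the ETS core and 0.05 for 53 without it, and 0.08 for 11 with the YY1 core and 0.03 for 61 without it. In the 3' tables all 11 members with the YY1 core were higher in the library labelled knock (median 0.41), beside 36 of 58 without it (median 0.15). The NRF1 core gave 0.29 for 10 members with it and 0.25 for 59 without it. For the ETS core the medians were 0.35 for 19 with it (12 higher) and 0.22 for 50 without it (35 higher). For the hypoxia core they were 0.28 for 17 with it (14 higher) and 0.22 for 52 without it (33 higher). Of all genes at the limit there, 58.8% were higher, and genes outside the members were not split by core.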

How the data were processed

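Per the labels' protocols, L929 cells were picked with a capillary, and cDNA made from oligo dT by template switching went through 20 cycles of PCR. The files deposited by the authors hold raw whole-number counts, with genes in rows. FastQC, Picard and STAR 2.7.11b, with the builds GRCm38 and GRCh38 in no stated role, are named per the submitters' processing notes. Not given in the sources used here are the counter, strand setting and filters, or if the 3' counts are reads or UMIs.

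Ensembl IDs of the 3' tables took their symbols from GENCODE vM21 (55141 of 55401 matched). The rest held 0.0194% and 0.0329% of the counts, and 1 row that names no mouse gene held 0 counts. For 3 members (Atp5pb, Atp5md and Dmac2l) symbols were paired through RefSeq synonyms. Counts were summed over columns and scaled to CPM. Levels have exact Poisson intervals and ratios exact conditional (Clopper-Pearson) intervals, at 95%, for counting error only. PCR copies counted as reads would make them too narrow. No p-value was computed, since columns are not replicates. Genes at 20 CPM or more (mean of both groups) entered counts, and a fold of 1.5 was the size limit. Named were, per method, the 4 largest ratios in each direction, the highest member per kilobase of each complex, all Sdh genes, complex I core subunits, tissue isoforms, members without a count in 1 method, and members with separate columns in both. For the largest ratios, the group with the higher level needed a count in 25% of its columns, and the direction had to hold when its highest column was left out. Members named beside these were chosen after their values were seen. The single values of 1 member are not reported here. The members and lists were chosen with earlier results of these data known.

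Near copies were found with BLAST 2.17.0, overlaps from GENCODE vM21. Alternatives were TMM (edgeR 4.0.16) and median-of-ratios factors (DESeq2 1.42.0), other totals, column means, thinning, other level limits, fewer members and each column left out. Software was Python 3.11.15 with scipy 1.17.1, pandas 2.3.3, matplotlib 3.10.9 and numpy 2.4.6, and R 4.3.3. Counts were also simulated with 200 genes altered by 1.5-fold, each column being drawn from 1 pooled profile with counting error only. The median absolute error of the log2 ratio was 0.08 for CBTi-seq (20716 genes) and 0.06 for the 3' tables (55294 genes). The intervals held the true ratio for 98% and 93.5% of the altered genes. That setting lacks the spread among real columns, so these shares check the computation and not the intervals on these data.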

Additional observations from a re-analysis of the deposited data

Results flagged for a closer look

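Dmac2l and Ndufaf5 had ratios of opposite sign in the 2 methods. The log2 ratio of knock to control for Dmac2l was -1.28 by CBTi-seq, from 40 and 15 counts, and 1.20 in the 3' tables, from 132 and 392 counts. For Ndufaf5 it was -0.80 by CBTi-seq and 1.43 in the 3' tables, from 46 and 161 counts. The difference between the methods was not tested, Rrm2 differs in direction between them as well, and Dmac2l by CBTi-seq and Ndufaf5 by 3' counts lie under the level limit.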

How the results depend on the processing

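Of the 18 ratios of single members followed here, 16 kept their sign under every alternative. Ndufaf2 (-0.17) and Ndufaf3 (0.17) changed sign when CBTi-seq columns were thinned to the same depth. For CBTi-seq, thinning moved the complex II median to 0.011, and the number of members higher by 1.5-fold or more was 2 with thinning or with means of CPM over columns and 0 to 3 with each column left out (3 without control column 9, the deepest). The number lower was 5 from a limit of 1 CPM.

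In the 3' tables the medians of all members and of complexes I, II, III, IV and V were 0.055, 0.16, 0.24, 0.43, -0.18 and 0.13 with TMM factors. They were 0.035, 0.14, 0.22, 0.41, -0.20 and 0.11 with median-of-ratios factors, and 0.12, 0.17, 0.25, 0.44, -0.17 and 0.15 with totals without mitochondrial and ribosomal protein genes. Without members that overlap another gene, they were 0.087 for all, 0.097 for complex I, 0.22 for complex III and 0.41 for complex V. The median of all members was 0.27 from a limit of 1 CPM, that of complex II was 0.29 with thinning, and that of complex III was 0.41 from a limit of 50 CPM. Members higher by 1.5-fold or more numbered 10 with TMM, 8 with median-of-ratios factors and 6 without overlapping members. Members lower by that much numbered 4 with each of the 3 scalings, and 0 from a limit of 50 CPM or without overlapping members. Leaving out each column gave 14 to 18 higher and 1 lower. The cause of these differences was not tested, beyond the fewer genes that some settings keep.

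No paired analysis was possible because the labels give no replicate numbers to the samples and the results come from no test. Ratios of members with under 100 counts, such as Ndufaf3, Ndufaf5 and Dmac2l, are limited by depth.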
